A study of Rattus norvegicus with 72 samples.

Results

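The cytosolic ribosomal protein genes of the rat lung were examined in 72 RNA sequencing libraries, 1 per animal. They were taken by symbol alone, as every gene of the deposited count table named Rps or Rpl with a number (with the suffixes a, x, y or l allowed) together with Rplp0, Rplp1 and Rplp2. This gave 87 of 30042 genes, 35 of the small subunit and 52 of the large subunit. Rpsa and Fau, which also encode ribosomal proteins, and the symbols ending in ps fall outside this choice of names.

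All animals were adult male Sprague-Dawley rats that breathed filtered air or diesel exhaust particles, a soot aerosol, by whole-body inhalation for 6 hours a day over 4 days. At each of days 1, 7 and 27 after the last exposure there were 6 rats at 1000 ug/m3, 6 air rats with the letter H, 6 rats at 200 ug/m3 and 6 air rats with the letter L. Exposed titles carry H at 1000 ug/m3 and L at 200 ug/m3. The labels do not explain the letters, so in exposed rats the letter and the concentration cannot be told apart, and whether the H and L animals of a day were handled or sequenced together is not given in the sources used here. The RNA came from a piece of whole lung, which holds many cell types.

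A ribosome is built from ribosomal RNA and a set of proteins that are needed in equal numbers, 1 copy per subunit for nearly all of them. Their genes lie scattered over the chromosomes but share a special start: the messenger RNA begins with a C and a run of pyrimidines, the 5′ terminal oligopyrimidine tract, through which growth signals acting on mTOR control their translation together. In lung, as in other tissues, every cell type expresses them, and these genes have left many processed copies in mammalian genomes.

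RefSeq start sites on the rat build GRCr8 were found for 67 of the 87 genes (68 entries). A C followed by 4 or more bases that are each C or T, alone or inside a longer run, began exactly at the annotated start in 33.8% of these entries, and in 2.63% of all 33469 promoter entries. For such a stretch beginning within 5 bases to either side of the start the shares were 58.8% and 17%. Only the transcribed strand was searched, and such a run is a match of letters in the annotated start region and no more. The windows below go from 40 bases before the start to its base 20. Capitals mark the unbroken run of C and T, taken from its first C, that comes nearest to the start base. The first 7 are shown because these genes were lower in the H sets of day 7, where more members were higher. The last 5 are shown as members that were higher there.
Rps16, chr1:92770618-92770677, plus strand: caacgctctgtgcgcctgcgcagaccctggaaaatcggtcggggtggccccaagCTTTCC
Rpl38, chr10:100200395-100200454, plus strand: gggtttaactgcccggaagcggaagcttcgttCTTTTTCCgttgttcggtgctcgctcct
Rps28, chr7:15311314-15311373, minus strand: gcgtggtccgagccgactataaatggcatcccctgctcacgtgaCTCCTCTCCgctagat
Rps15, chr7:10068096-10068155, minus strand: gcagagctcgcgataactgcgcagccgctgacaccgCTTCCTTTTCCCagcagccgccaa
Rpl7l1, chr9:21695678-21695737, plus strand: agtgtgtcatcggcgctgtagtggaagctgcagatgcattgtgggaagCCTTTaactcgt
Rpl28, chr1:78083513-78083572, minus strand: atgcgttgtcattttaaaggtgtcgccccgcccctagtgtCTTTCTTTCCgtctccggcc
Rpl21, chr12:13386134-13386193, minus strand: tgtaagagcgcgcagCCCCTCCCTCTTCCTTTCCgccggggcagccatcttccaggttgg
Rpl13a, chr1:104748894-104748953, minus strand: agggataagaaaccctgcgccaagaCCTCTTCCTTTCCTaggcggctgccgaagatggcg
Rpl18, chr1:105325230-105325289, plus strand: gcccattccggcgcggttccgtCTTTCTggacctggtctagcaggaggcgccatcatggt
Rps3a, chr2:173827023-173827082, minus strand: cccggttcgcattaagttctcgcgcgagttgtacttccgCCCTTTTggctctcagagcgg
Rpl19, chr10:83519024-83519083, plus strand: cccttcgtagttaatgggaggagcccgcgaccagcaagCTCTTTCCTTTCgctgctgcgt
Rpl11, chr5:153560783-153560842, minus strand: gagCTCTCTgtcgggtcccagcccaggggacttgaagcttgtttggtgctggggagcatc
The run covers the start base in Rps15 and Rpl28, both lower in H at day 7, and likewise in Rps3a and Rpl19, both higher. It ends 1 base before the start in Rpl38. In Rps16 it begins at base 15 and goes on past the end of the window. The nearest run lies 13 bases from the start in Rpl18 and 32 bases from it in Rpl11, so members higher in H stood with and without one close by. Of the members with a stretch beginning within 5 bases of the start, 38 were tested between air H and air L at day 7, and 13 of them were higher and 5 lower in H. Of 21 tested members without one, 11 were higher and 5 lower. Of all genes tested there, 10.3% were called higher and 15.2% lower in H.

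Total counts ran from 1042336 to 2397971 at day 1, from 3471134 to 6279763 at day 7 and from 3761631 to 6520180 at day 27, apart from 3 shallow ones from the 1000 ug/m3 groups. These were animal 037 of day 7 with 105453 counts, of which 1403 fell in ribosomal protein genes, and animals 024 and 045 of day 27 with 439393 and 149004 counts. Day 1 and low depth cannot be told apart. Lung markers were present in all 72 libraries: Sftpc of type II cells at 2869 to 9296 TMM-scaled CPM, Ager of type I cells at 1139 to 2156 and Cdh5 of endothelium at 398 to 1029. Of the alveolar macrophage markers, Mrc1 lay between 79.6 and 318 but Marco was at 0 in 69 libraries. TMM-scaled CPM are counts divided by the library total and multiplied by 1000000, after a library scaling computed here. All levels below are in this unit unless given as a share or as CPM before scaling. They follow transcript length as well as abundance, so levels of different genes are compared only as reads.

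All 87 genes had at least 1 count and 69 had one in each of the 72 libraries. Of the 87, 75 averaged at least 10 CPM before scaling. Rpl4, Rplp0, Rpl5 and Rpl7 drew the most reads, 14.1% of all ribosomal protein counts together, which is no ranking per transcript because lengths were not used. At the other end stood Rps9 with 1 count over all libraries, Rpl35a with 2, Rpl7a with 6 and Rps19l1 with 11. These are core proteins of every ribosome apart from Rps19l1. Among the 75 genes, the highest of the 12 group means was a median of 1.62 times the lowest, and 64 genes stayed below 2 times. Rps16 had the widest range, 29.1 times.

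Together the 87 genes took 0.945% to 1.72% of the counts of a library. At day 1 the rats given 1000 ug/m3 had a share of 1.1% ± 0.108 and their air H rats 1.08% ± 0.122, while the 200 ug/m3 rats had 1.18% ± 0.0886 and the air L rats 1.20% ± 0.110 (SD, n = 6 each). At day 7 the 1000 ug/m3 rats had 1.56% ± 0.135 and the air H rats 1.47% ± 0.113, while the 200 ug/m3 rats had 1.32% ± 0.0691 and the air L rats 1.31% ± 0.0431. At day 27 the 1000 ug/m3 rats had 1.37% ± 0.0719 and the air H rats 1.33% ± 0.0542, while the 200 ug/m3 rats had 1.47% ± 0.165 and the air L rats 1.53% ± 0.0794. The means of the H groups thus lay above those of the L groups at day 7 and below them at days 1 and 27, in air and exposed rats alike. No test is given for these sums, since the members were chosen with results of these data known. For 61 of the 75 genes the lowest of the 12 group means was one of day 1. The same count was not made over all genes, and day 1 is also the day of lowest depth. In bulk lung, fewer cells of a strongly expressing type and less RNA per cell cannot be told apart.

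**Figure D1:**
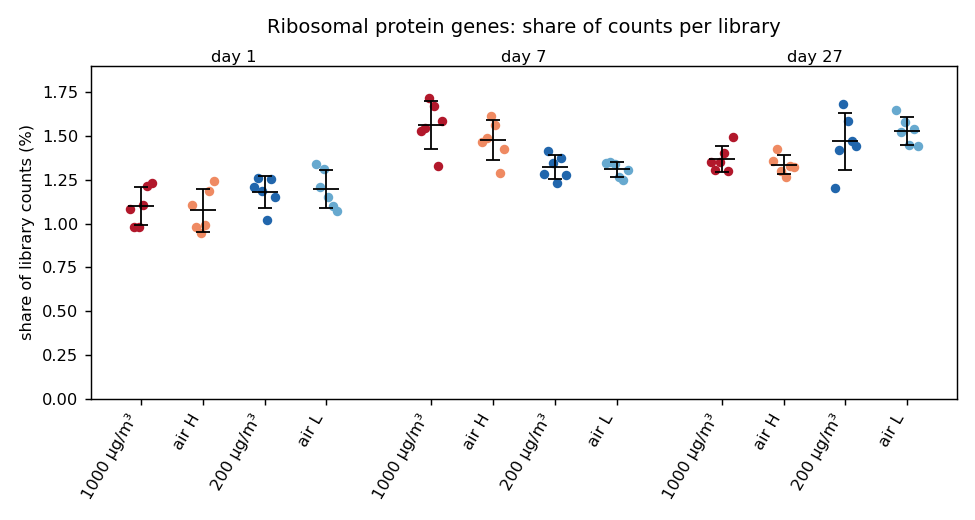
Share of each library's counts in the 87 ribosomal protein genes (y axis, percent), with 1 point per animal and the mean ± SD of 6 animals, for the 4 groups of days 1, 7 and 27. The day 7 groups at 1000 ug/m3 and in air H have means of 1.56% and 1.47%, against 1.32% and 1.31% for 200 ug/m3 and air L.

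The animal numbers of the H rats fall into 2 series, 1 to 24 and 25 to 48, and the labels do not say what they mean. At day 1 the later series held 1.21% to 1.23% after 1000 ug/m3 and 1.19% to 1.24% in air (2 rats each), while the earlier one held 0.979% to 1.11% after 1000 ug/m3 and 0.945% to 1.11% in air (4 rats each). There the series did not overlap. At day 7 the later series held 1.33% to 1.58% after 1000 ug/m3 and 1.29% to 1.43% in air, and the earlier one 1.53% to 1.72% and 1.47% to 1.61%, which overlap after 1000 ug/m3 and not in air. At day 27 the later series held 1.299% to 1.49% after 1000 ug/m3 and 1.32% to 1.33% in air, and the earlier one 1.304% to 1.40% and 1.27% to 1.43%, with overlap in both. The part of the series in the differences between H and L was not tested, because L animals carry other numbers. Rmrp and Terc, the RNA parts of RNase MRP and of telomerase, were also spread widely at day 1. Summed, they lay at 3171 to 10974 CPM after 1000 ug/m3 and 3880 to 5711 in air H, and at 3100 to 22655 after 200 ug/m3 and 4241 to 40575 in air L. At days 7 and 27 the range over all groups was 2798 to 8105. The part of this in the day 1 levels was not tested.

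Exposure to diesel particles was tested first, each exposed group against the air group of its own letter and day, in fits of the 24 libraries of a day with edgeR's quasi-likelihood test and Benjamini-Hochberg adjustment over all genes. A gene is called here at an adjusted p below 0.05, and log2 fold changes are given with their standard error (SE). No ribosomal protein gene was called in any of the 6 comparisons, of 75 tested at day 1, 77 at day 7 and 78 at day 27. Over all genes, the share called was 0% in 5 of the comparisons and 0.00698% for 200 ug/m3 at day 7. At an unadjusted p below 0.05, after 1000 ug/m3, there were 1 of 75 members at day 1 (1.33%, against 3.41% of all genes), 12 of 77 at day 7 (15.6%, against 4.39%) and 5 of 78 at day 27 (6.41%, against 7%). After 200 ug/m3 there were 7 at day 1 (9.33%, against 6.02% of all genes), 4 at day 7 (5.19%, against 5.71%) and 1 at day 27 (1.28%, against 9.69%). DESeq2 called 0 as well.

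The whole set nevertheless lay slightly off the remaining genes in some of these comparisons. At day 7 after 1000 ug/m3, 68 of 77 members had positive values, with a median log2 fold change of 0.11 where that of all genes was 0.00. At day 27 after 200 ug/m3, 68 of 78 had negative values, with a median of -0.07 and again 0.00 for all genes. The other 4 medians lay between -0.06 and 0.05. These are counts of genes measured in the same few animals and carry no test.

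The member with the smallest p was Rpl32, a large subunit protein, after 1000 ug/m3 at day 7. It ranged from 213 to 262 CPM with a median of 233 after 1000 ug/m3, and from 177 to 217 with a median of 201 in air H. The exposed rats overlapped the air rats only at the edge, and the log2 fold change of 0.24 (SE 0.06, unadjusted p = 0.000200) was not called (edgeR adjusted p = 1.00). Rpl4 at day 1 after 1000 ug/m3 had 0.16 (SE 0.08), and Rpl34 after 200 ug/m3 had 0.28 (SE 0.10) at day 1 and -0.16 (SE 0.08) at day 27, none of them called. Rpl17 at day 7 ranged from 132 to 167 CPM after 200 ug/m3 and from 25.2 to 134 in air L, so that its value of 0.77 (SE 0.27, edgeR adjusted p = 0.715) rests on a wide spread in air. For the stalk protein gene Rplp2 at day 27, the value of 1.8 (SE 0.56, edgeR adjusted p = 0.591) after 1000 ug/m3 goes with 1 library, animal 022, with 73 of its counts, at 13.8 CPM where the next highest library of the group had 2.36.

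The H and L sets, by contrast, differed. At day 1, 3 of 75 members were called between air H and air L, all lower in H, where 1.68% of all genes were called, 0.829% higher and 0.853% lower. Rps2, a small subunit protein near the entry of the messenger RNA, ranged from 56.0 to 82.9 CPM with a median of 70.3 in air H and from 74 to 119 with a median of 103 in air L. Its log2 fold change was -0.55 (SE 0.13, edgeR adjusted p = 0.0341), with overlapping groups. Rpl18 had -0.44 (SE 0.11, edgeR adjusted p = 0.0413) and Rps16 -0.42 (SE 0.11, edgeR adjusted p = 0.0484). The call of Rps16 was lost under other filters and in a fit of all 72 libraries (adjusted p of up to 0.385 by edgeR). The median of the 75 members was -0.17 against 0.00 for all genes. DESeq2 called 8 members and a fit of all 72 libraries 12. Between the exposed sets of day 1, 0 of 75 were called in edgeR, where 0% of all genes were called. At an unadjusted p below 0.05 there were 11 members (14.7%, against 12.5% of all genes), while DESeq2 called 1 and the fit of all 72 libraries 2.

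At day 7 many ribosomal protein genes were higher in the H sets, and more than were lower. Between air H and air L, 45 of 77 were called, 34 higher and 11 lower, where 25.5% of all genes were called, 10.3% higher and 15.2% lower. Between 1000 and 200 ug/m3, in other animals, 54 of 77 were called, 46 higher and 8 lower, where 27.9% of all genes were called, 11.7% higher and 16.2% lower. Medians over the members were 0.23 in air and 0.30 in exposed rats, against 0.01 for all genes in each. Both subunits took part: in air, 10 of 31 small subunit and 24 of 46 large subunit genes were higher, and 5 and 6 were lower.

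**Figure D2:**
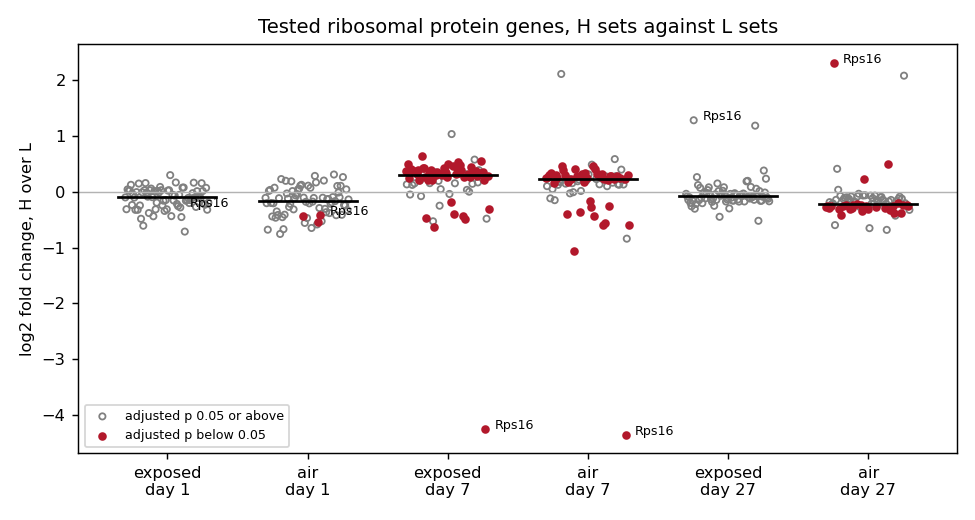
Log2 fold change of each tested ribosomal protein gene, H over L (y axis), in exposed and air rats at each day, with 1 point per gene, filled where the adjusted p is below 0.05, and a bar at the median. The medians are 0.30 and 0.23 at day 7 and -0.08 and -0.21 at day 27, and Rps16 lies at -4.24 and -4.35 at day 7.

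Some cell type markers were called between the same sets of day 7, where 25.5% of all genes were called in air and 27.9% between exposed sets. Of 3 neutrophil markers, S100a8 and S100a9 were called higher in air H, at 1.05 (SE 0.29) and 0.87 (SE 0.29), and 0 were called between exposed sets. Positive values were found for 2 of the 3 in each comparison, and Cxcr2 was negative in air. The sum of the 3 ranged from 43.3 to 104 CPM after 1000 ug/m3 and 43.9 to 65.8 after 200 ug/m3, and from 46.1 to 207 in air H and 42 to 66.6 in air L. Of 3 red cell markers, Hbb was called higher in H in air, at 0.60 (SE 0.19), and Hbb and Alas2 between exposed sets. In each comparison 2 of the 3 had positive values, and Slc4a1 was negative between exposed sets. The sum ranged from 814 to 1385 after 1000 ug/m3 and 497 to 926 after 200 ug/m3. In air it ranged from 800.1 to 1874 in H and 653 to 1022 in L. Of 3 tested B cell markers, 0 were called and 0 had positive values in air. Between exposed sets 2 were called higher and all 3 had positive values. Of these, Cd79b had -0.27 (SE 0.19) in air and 0.56 (SE 0.20, called) between exposed sets. Another, Cd79a, was at 0 in 41 libraries.

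Some fibroblast and club cell markers were lower in H. Col1a1, a collagen chain, was called lower in H at -1.22 (SE 0.22) in air and -1.296 (SE 0.24) between exposed sets, and Dcn, the other fibroblast marker, had 0.30 (SE 0.15) and 0.21 (SE 0.15) and was not called. The sum of these 2 ranged from 185 to 294 after 1000 ug/m3 and 311 to 511 after 200 ug/m3, and from 174 to 340.1 in air H and 367 to 549 in air L. Of 2 club cell markers, Scgb1a1 was called lower in air H, at -0.79 (SE 0.22), and 0 of 2 were called between exposed sets. The sum ranged from 756 to 2053 after 1000 ug/m3 and 1439 to 2910.1 after 200 ug/m3, and from 897 to 1454 in air H and 1452 to 2326 in air L. At day 27 Col1a1 was called higher in air H, at 1.013 (SE 0.26), and Dcn lower, at -0.53 (SE 0.16). At day 7 in air, 1 of 4 type II cell markers was called lower, where 25.5% of all genes were called. Of 3 type I cell and 3 endothelial markers, 1 each was called higher and 1 lower. None of the tested ciliated cell, alveolar macrophage, T cell, plasma cell or cardiac muscle markers was called at day 7 in air or between exposed sets. The part of these cell types in the ribosomal protein values was not tested.

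The same genes were called in air and exposed rats to a large extent. Of the members higher in H at day 7, 32 were called in both, which is 94.1% of the air list and 69.6% of the exposed list. Of those lower in H, 8 were called in both, 72.7% of the air list and 100% of the exposed list, and 0 were called in opposite directions. Of all genes, 25.5% were called in air and 27.9% between exposed sets. Their overlap was not computed, so the agreement is not shown to be particular to these members. Across the 77 members, which share libraries and depth, Pearson's r between the air and the exposed values was 0.89, and 0.64 without Rps16 (Spearman's rho 0.74 and 0.72). The sets share no library.

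**Figure D3:**
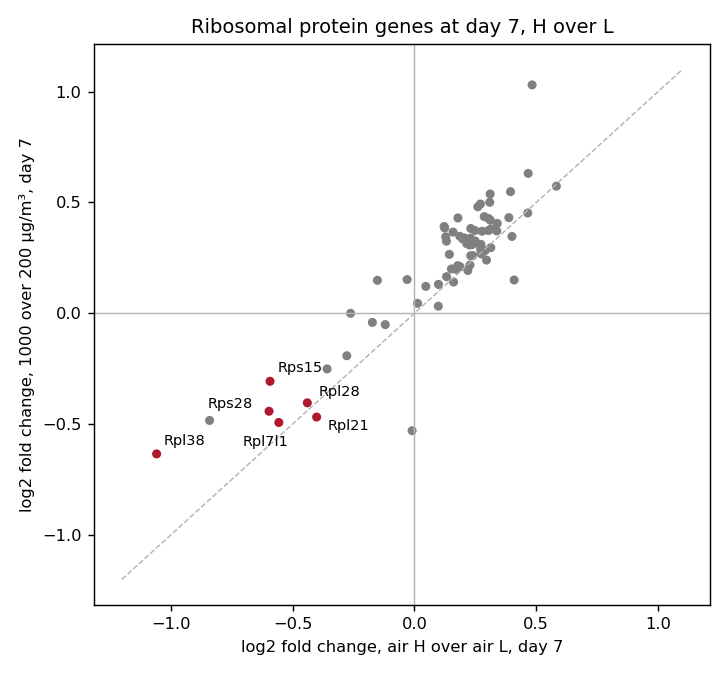
Log2 fold changes of 75 ribosomal protein genes at day 7, air H over air L (x axis) and 1000 over 200 ug/m3 (y axis), with 1 point per gene and a dashed line of equality. Rps16 and 1 other gene lie outside the axes, and 6 genes named in the plot lie low on both axes, with Rpl38 at -1.06 and -0.63.

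Among the members that were higher in H at day 7 were genes of several roles. Rps27l, a paralog of Rps27 that p53 induces in human cells, had 0.47 (SE 0.14, edgeR adjusted p = 0.0119) in air and 0.63 (SE 0.14) in exposed rats. Rpl22l1, a paralog of Rpl22, had 0.39 (SE 0.12) and 0.43 (SE 0.13). Both were among the 5 largest of the 34 called higher in air.

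Rpl13a, a large subunit protein that in human macrophages also silences inflammatory messenger RNAs, ranged from 416 to 490.1 CPM with a median of 460.0 after 1000 ug/m3 and from 352 to 394 with a median of 366 after 200 ug/m3 at day 7. The exposed groups did not overlap. In air it ranged from 391 to 499.7 with a median of 435 in H and from 342 to 403 with a median of 370 in L, which overlap by a little. Its log2 fold changes were 0.33 (SE 0.06) and 0.25 (SE 0.05, edgeR adjusted p = 0.000855).

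Rpl11, which also binds the p53 regulator MDM2, had 294 to 357 CPM after 1000 ug/m3 and 230 to 291 after 200 ug/m3, with no overlap, and 273 to 324 in air H against 238 to 286 in air L. The log2 fold changes were 0.31 and 0.24 (SE 0.06 each). The stalk genes Rplp0 and Rplp1, whose proteins recruit translation factors to the ribosome, had 0.39 (SE 0.08) and 0.54 (SE 0.11) between exposed sets and 0.12 (SE 0.08, not called) and 0.31 (SE 0.11, called) in air. The call of Rplp1 in air was lost without a filter and in the fit of all 72 libraries.

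Against this, 7 members were called lower in H at day 7 in both air and exposed rats and lay more than 0.5 below the median of the members in both. They are Rps16, Rpl38, Rps28, Rps15, Rpl7l1, Rpl28 and Rpl21. At days 1 and 27 no member was called between the exposed sets, so none could meet these conditions.

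Rps16 encodes a small subunit protein whose tail reaches toward the transfer RNA in the decoding site. At day 7 it ranged from 2.78 to 17.3 CPM with a median of 8.06 after 1000 ug/m3 and from 129 to 162 with a median of 138 after 200 ug/m3. In air H it ranged from 3.89 to 19.2 with a median of 7.47, and in air L from 169 to 200.5 with a median of 177. Every H library of that day, exposed or air, lay below every L library by a wide margin. The log2 fold change was -4.24 (SE 0.25, edgeR adjusted p = 7.15e-11) between exposed sets and -4.35 (SE 0.23, edgeR adjusted p = 8.30e-12) between air sets, the second and the third largest of all genes tested by size. The highest exposed value, 17.3 CPM, rests on 2 counts in the shallow library of animal 037. Over the settings tried, which include leaving out the shallow libraries, the exposed value lay between -4.27 and -4.21 and the air value between -4.35 and -4.32.

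At the other days Rps16 did something else. At day 1 it ranged from 144 to 258 CPM after 1000 ug/m3, 168 to 241 in air H, 206 to 240.3 after 200 ug/m3 and 199.8 to 302 in air L, so that all groups stood high. At day 27 air H stood high, from 97.6 to 199.7 with a median of 133, and air L low, from 11.8 to 60.4 with a median of 21.5, without overlap. The log2 fold change there was 2.31 (SE 0.42, edgeR adjusted p = 0.00138), the opposite sign to day 7.

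At day 27 the 1000 ug/m3 rats were divided in their Rps16 level. Animals 021 and 022 had 117 and 138 CPM, within the range of air H, while animals 023, 024, 045 and 046 had 35.8, 42.4, 43.7 and 20.2, below all air H rats. The 200 ug/m3 rats had 16.8 to 45.7 with a median of 30.1. The differences were not called, at 1.28 (SE 0.44, edgeR adjusted p = 0.504) for 1000 against 200 ug/m3 and -0.88 (SE 0.41, edgeR adjusted p = 0.712) for 1000 ug/m3 against air H. The values of animals 024 and 045 come from 19 and 7 counts in shallow libraries. The higher pair belongs to the number series 1 to 24, which also holds animals 023 and 024.

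The change of the air H to air L difference between days was tested in a fit of all 72 libraries. For Rps16 it was -3.95 (SE 0.43, edgeR adjusted p = 2.32e-10) for day 7 against day 1, 2.72 (SE 0.38) for day 27 against day 1 and 6.67 (SE 0.43, edgeR adjusted p = 3.80e-19) for day 27 against day 7. Of the genes next to Rps16 in the GRCr8 gene table, Plekhg2, a nucleotide exchange factor, had -0.36 (SE 0.11) in air and -0.64 (SE 0.11) between exposed sets at day 7 and 0.52 (SE 0.14) in air at day 27, all called. Its changes have the signs of those of Rps16 and are far smaller.

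**Figure D4:**
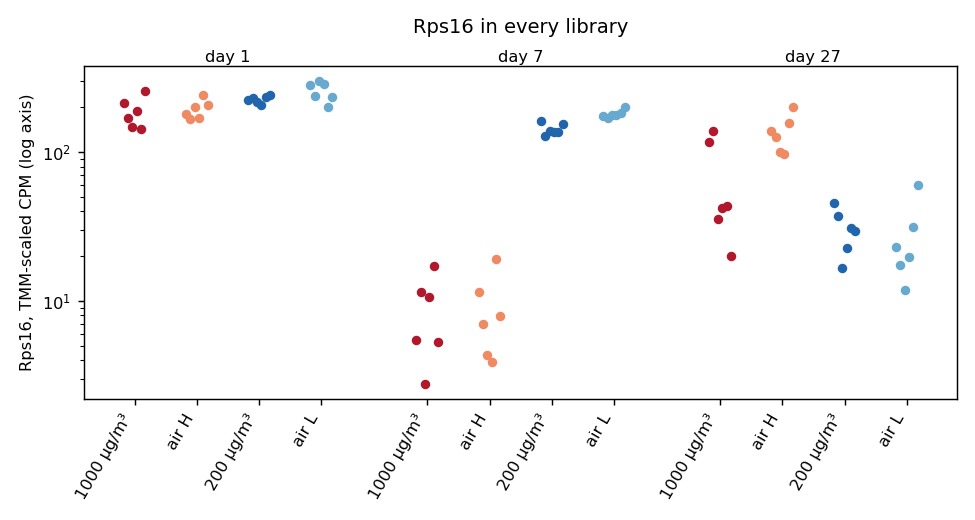
Rps16 in TMM-scaled CPM on a log axis, 1 point per animal, for the 4 groups of days 1, 7 and 27. All 12 H animals of day 7 lie at or below 19.2 CPM and all 12 L animals of that day at or above 129.

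Rpl38, a large subunit protein that in mouse embryos favours the translation of certain Hox messenger RNAs, was the next most distant. It ranged from 15 to 23.3 CPM with a median of 20.2 in air H and from 28.4 to 64.7 with a median of 38.2 in air L at day 7, without overlap. After 1000 ug/m3 it ranged from 8.66 to 33.5 and after 200 ug/m3 from 26.3 to 63.0, with overlap. The log2 fold changes were -1.06 (SE 0.21, edgeR adjusted p = 0.000435) in air and -0.63 (SE 0.21, edgeR adjusted p = 0.0261) in exposed rats. The exposed call was lost without a filter on low counts (edgeR adjusted p = 0.0568). At day 27 its air value was 0.41 (SE 0.22, not called), and the change of the air difference from day 7 to day 27 was 1.48 (SE 0.30, edgeR adjusted p = 7.82e-05).

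Rps28, a very small protein at the exit of the messenger RNA, had 36.8 to 42.5 CPM with a median of 37.9 in air H of day 7 and 55.0 to 62.6 with a median of 57.9 in air L. At day 27 the order was turned round, with 50.6 to 59.6 in air H and 27.1 to 46.9 in air L. Neither pair overlapped, and both were called, at -0.60 (SE 0.10, edgeR adjusted p = 2.84e-05) and 0.50 (SE 0.10, edgeR adjusted p = 0.00134). The exposed value of day 7 was -0.44 (SE 0.10, edgeR adjusted p = 0.00157), from 8.66 to 45 CPM after 1000 ug/m3 and 36.4 to 68.5 after 200 ug/m3, where the lowest value is 1 count in animal 037.

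Rpl7l1, a paralog of Rpl7 with a role in building the large subunit, had 34.6 to 66.2 CPM after 1000 ug/m3 and 78.4 to 87.6 after 200 ug/m3 at day 7, and 54.4 to 65.7 in air H and 81 to 103 in air L. The groups were apart in both pairs. Its log2 fold changes were -0.49 (SE 0.08) and -0.56 (SE 0.07, edgeR adjusted p = 4.84e-07). In air at day 27 it was higher in H by 0.24 (SE 0.07, edgeR adjusted p = 0.0251). Of the 7 departing genes, 3, Rps16, Rps28 and Rpl7l1, were called in opposite directions in air at days 7 and 27, and they were the only 3 members called higher in air H at day 27.

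Rps15, next to the decoding site of the small subunit, ranged from 116 to 147 CPM in air H and 178 to 217 in air L at day 7, without overlap. Its values were -0.59 (SE 0.10, edgeR adjusted p = 6.56e-05) in air and -0.31 (SE 0.10, edgeR adjusted p = 0.0292) in exposed rats. The exposed call was lost under 3 settings, without scaling factors, without a filter and in the fit of all 72 libraries (edgeR adjusted p of up to 0.0646). Rpl28, a large subunit protein of eukaryotes, had -0.44 (SE 0.13, edgeR adjusted p = 0.0126) and -0.40 (SE 0.13, edgeR adjusted p = 0.0233), with overlapping groups in both. Its exposed call ended without a filter (edgeR adjusted p = 0.0504). Rpl21, another large subunit protein, had 59.8 to 71.3 CPM in air H and 80.8 to 96.2 in air L, and 17.3 to 82.9 after 1000 ug/m3 and 84.1 to 126 after 200 ug/m3. Neither pair overlapped, and the values were -0.40 (SE 0.09) and -0.47 (SE 0.09, edgeR adjusted p = 0.000340).

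At day 27 the common difference had the other sign. Of 78 members 30 were called between air H and air L, 3 higher and 27 lower, where 14% of all genes were called, 8.92% higher and 5.11% lower. The median was -0.21, and 72 of 78 members had negative values. Rps24, a small subunit protein, had the smallest p, with 305 to 353 CPM and a median of 327 in air H and 394 to 453 with a median of 421 in air L. The groups did not overlap, and the log2 fold change was -0.38 (SE 0.07, edgeR adjusted p = 0.000784). Rpl36a had -0.42 (SE 0.13), Rpl11 -0.34 (SE 0.07) and Rps3a -0.31 (SE 0.08). Between the exposed sets of day 27 edgeR called 0 of 78, where 0% of all genes were called, and DESeq2 called 0. At an unadjusted p below 0.05 there were 15 members (19.2%, against 7.36% of all genes), and the median was -0.08.

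Of the 34 members called higher in air H at day 7, 19 were called lower in air H at day 27. That is 55.9% of the first list and 70.4% of the 27 lower ones. The same share was not computed for all genes called higher at day 7. Across 77 members, Pearson's r between the air values of days 7 and 27 was -0.43, and 0.25 without Rps16. Spearman's rho was -0.27 and -0.24, so the order of the members was turned round only weakly. No member was called in the same direction at both days. The change of the air difference from day 7 to day 27 was called for 52 of 78 members, 7 with a higher and 45 with a lower difference at day 27, where 29% of all genes were called, 17.5% higher and 11.4% lower. The median was -0.44. For day 7 against day 1 it was 31 of 78, 26 higher and 5 lower, where 18.1% of all genes were called, 6.81% higher and 11.3% lower, with Rpl13a at 0.79 (SE 0.14) and Rpl18 at 0.66 (SE 0.13). For day 27 against day 1 it was 15 of 78, 4 higher and 11 lower, where 11% of all genes were called, 6.36% higher and 4.61% lower, with Rpl34 at -0.63 (SE 0.13) and Rps24 at -0.55 (SE 0.12).

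**Figure D5:**
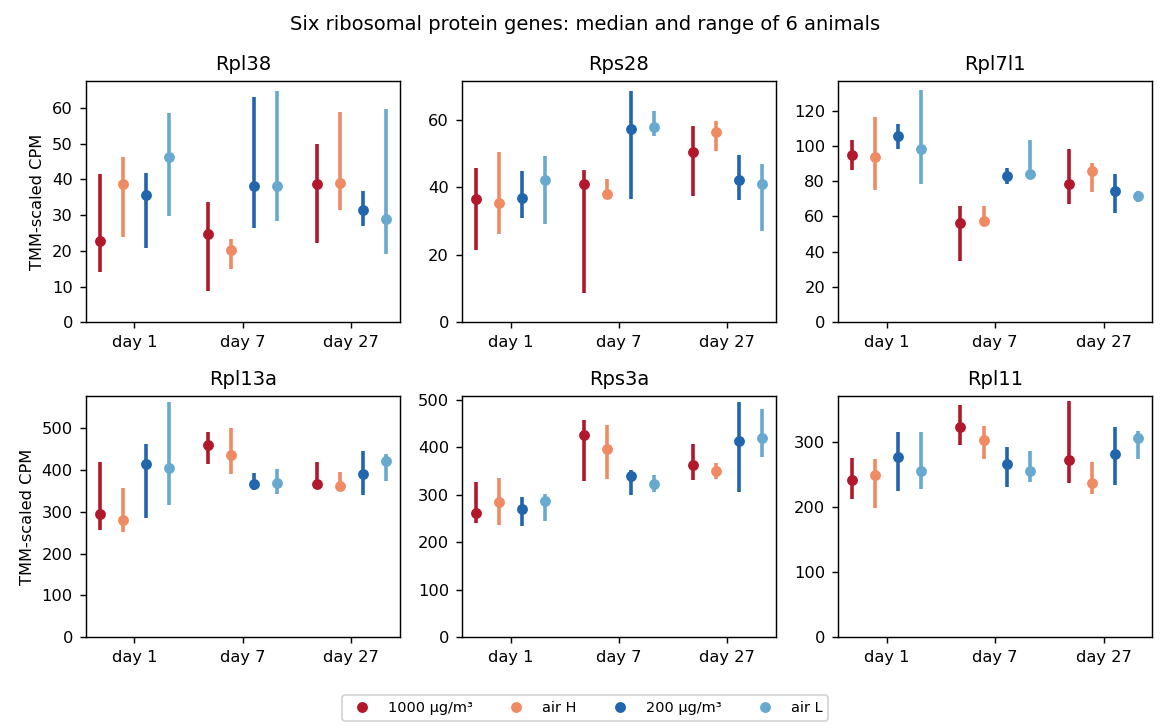
Level of 6 ribosomal protein genes (y axis, TMM-scaled CPM from 0) in the 4 groups of days 1, 7 and 27, with a point at the median and a line over the range of 6 animals. Rpl38, Rps28 and Rpl7l1 are lower in the H sets of day 7, and Rpl13a, Rps3a and Rpl11 are higher there and lower in air H than in air L at day 27.

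Several rows of the table are named as copies of these genes, and how alike the sequences are was not measured here. By the GRCr8 gene table, 103 other rows are named for 55 members, most as a copy and some with the member's own name. All are counted as copies below. Of these rows, 89 had a count, and of the 89, 58 are pseudogenes and 30 are labelled protein coding. How reads that fit several places were treated is not given in the sources used here, so a member with a copy has an uncertain count. Copies held over 50% of the joint counts for 7 members. For Rps9, the row LOC103689992, which GRCr8 names Rps9, held 7750 counts and the member row 1. For Rplp2 the copies held 94.7% of the counts, for Rpl8 87.9%, for Rps4x 81%, for Rps19 65.9% and for Rps27a 62.8%. The rows LOC100362640 and LOC100912032, which hold most of these counts for Rps4x and Rps27a, also carry the member's own name in GRCr8. For Rps9, Rps4x and Rps27a these counts may thus be those of the gene itself under another identifier. The seventh, Rpl35a, had 4 counts in copies and 2 in its own row.

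Rps16 is unlike these, since its only copy row, Rps16-ps1, had 0 counts in all libraries. Of 33 copy rows tested beside their member in air at day 7, 26 had the sign of the member and 7 the opposite one. Both were called in 3 pairs, with the same sign, the copy alone in 7 and the member alone in 14. The row LOC100362640, named Rps4x in GRCr8, had 0.23 (SE 0.06, edgeR adjusted p = 0.00710) between air sets of day 7 and -0.29 (SE 0.07, edgeR adjusted p = 0.00660) at day 27, where the Rps4x row itself had 0.23 (SE 0.09) and -0.22 (SE 0.08), neither called. Other copies departed from their member. The row LOC102556290, named Rpl37-ps2, had -0.88 (SE 0.18, edgeR adjusted p = 0.000427) in air at day 7, where Rpl37 had 0.13, and RGD1359290, named Rpl17-ps16, had -1.89 (SE 0.47, edgeR adjusted p = 0.00483), where Rpl17 had -0.01. Rpl6-ps1 had 0.05 and was not called, where Rpl6 was called at 0.22. Over 36 tested copy rows, 8 were higher and 2 lower in air H at day 7, against 10.3% and 15.2% of all genes. After 1000 ug/m3, 17 were higher and 1 lower than after 200 ug/m3, against 11.7% and 16.2% of all genes. Counts of copies were also added to their members, an alternative chosen after the data were seen. No value changed sign by this among the members followed over the settings, which are not all of the named ones. Sizes did change over the settings. Rplp2 after 1000 ug/m3 at day 27 lay between 0.20 and 1.86, and Rpl17 after 200 ug/m3 at day 7 between 0.29 and 0.78. Neither was called under any setting.

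The group medians of Rpl8 lay between 0.64 and 3.10 CPM, yet single libraries stood far above them. A pair of libraries reached 24.3 and 20.2 after 1000 ug/m3 at day 1, and 1 library each reached 10.4 after 1000 ug/m3, 16.2 after 200 ug/m3 and 43.5 in air H at day 7, and 48.5 in air H at day 27. All other libraries were below 5 CPM. Its values of 2.11 (SE 0.82) and 2.07 (SE 0.71) between the air sets of days 7 and 27 were not called. Of 84 members with a single place in GRCr8, 43 overlap another annotated entry and 18 an entry named as a small nucleolar RNA gene. Entries named only by a LOC number were not sorted by kind, so 18 may be too few. Of the 16 tested members with such a named RNA, 6 were higher and 3 lower in air H at day 7. Of 59 without one by name, 27 were higher and 8 lower. Of all genes, 10.3% were called higher there and 15.2% lower.

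The paralogs of narrow expression were near 0 in lung. Rpl3l, a heart and skeletal muscle form, had at most 1.57 CPM in any library, Rpl39l at most 1.45 and Rpl10l, a testis form, at most 7.26. Rps4y2, named for a human gene of the Y chromosome, averaged 10.8 CPM before scaling and was not called between H and L at any day. Rpl22l1 and Rps27l averaged 23.9 and 23.7, also before scaling.

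Other genes of protein synthesis were described in the same way, with the shares of all genes called between air H and air L as their background (10.3% higher and 15.2% lower at day 7, 8.92% higher and 5.11% lower at day 27). Rpsa, a ribosomal protein outside the naming rule, had 0.23 (SE 0.07) in air and 0.35 (SE 0.07) between exposed sets at day 7 and -0.24 (SE 0.07) in air at day 27, all called. Among 20 tested translation factors and other messenger RNAs with a pyrimidine start, 3 were higher and 6 lower in air H at day 7, and 2 were higher and 5 lower at day 27. Tpt1, the translationally controlled tumor protein, had 0.39 (SE 0.06) at day 7 and -0.53 (SE 0.08) at day 27. Eif3f, a subunit of an initiation factor, had -0.31 (SE 0.08) and 0.41 (SE 0.07), and Naca, a chaperone of nascent chains, had -0.47 (SE 0.07) at day 7.

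Of 31 ribosome assembly genes, 6 were higher and 6 lower in air H at day 7, the lower ones at a share near that of all genes. Fbl, which methylates ribosomal RNA, had 0.47 (SE 0.13), while the nucleolar proteins Ncl and Nop56 had -0.73 (SE 0.14) and -0.74 (SE 0.12). Of 68 mitochondrial ribosomal protein genes, 12 were higher and 5 lower, with a median of 0.14, and Mrpl40 and Mrpl43 had -2.30 (SE 0.28) and -2.01 (SE 0.25). Of 17 short messenger RNAs of the respiratory chain 4 were higher, among them Ndufa4 at 0.28 (SE 0.07), and 2 lower, among them Uqcrb at -0.73 (SE 0.14). Mrpl40 and Mrpl43 thus lay far below the median of their own group, as Rps16 did in its own.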

How the data were processed

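The values are whole-number counts of reads per gene symbol, not normalized, which the authors deposited as 1 table of 30042 symbols by 72 libraries. Per the labels' protocols, total RNA from a piece of lung was made into stranded libraries after depletion of ribosomal RNA. HISAT2 2.1.0, HTSeq 0.6.1, Trimmomatic 0.35, SAMtools 1.8, bcl2fastq 2.19 and the build Rnor_6.0 are listed in the submitters' processing notes. No source used here gives the annotation release, the strand setting or the treatment of reads with several matches, so copies and overlapping genes may share reads.

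The 24 libraries of each day were fitted in R 4.3.3 with the robust quasi-likelihood test of edgeR 4.0.16 (genes kept by filterByExpr on the groups, TMM factors, Benjamini-Hochberg adjustment over all genes, threshold 0.05), and changes between days in a fit of all 72. SEs follow from the F statistic. The procedure was tested on simulated counts. Groups came from the labels of each sample. Alternatives were RLE or no scaling factors, TMM without the members, a filter of 1 CPM in 6 libraries, no filter, DESeq2 1.42.0, all 72 libraries in 1 fit, a block for the number series of the animals, and leaving out libraries below 500000 counts. Adding copies was chosen after the data were seen.

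The genes, the lists of other genes and the rule for named members were chosen with earlier results of these data known. The rule takes members called in the same direction in air and exposed sets of a day and more than 0.5 from the member median in both, the smallest p of each exposure comparison, the 4 most and the 4 least counted, minor paralogs, stalk genes, the strongest changes between days, and called genes of the other lists. Its part on protein identity was not used here, and copies were found by name in the RefSeq gene table of GRCr8, which holds 84 of the members by symbol. Rps2, Rpl36a, Rpl8, Rpsa, Plekhg2 and the copy rows with values were chosen after their values were seen. Promoter windows come from RefSeq. Single values of some genes are not reported here. Each library is 1 animal, and with cages and sequencing batches not given here, p-values measure the spread between these animals.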

Additional observations from a re-analysis of the deposited data

Results flagged for a closer look

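The share of ribosomal protein counts and 18 members whose levels by group are described were examined in each of the 12 groups of 6 animals, 228 cases in all, and 26 held a library far from the other 5. The cut-off is set for about 1 in 20 in independent, normally distributed values. It cannot serve as a chance rate here, since some members, among them Rpl8 and Rps2, were chosen after their values were seen. Several cases also come from 1 shallow library. In the shallow library of animal 037 (1000 ug/m3, day 7) the low values were 8.66 CPM for Rps28 where the next was 35.8, 0 for Rpl28 where the next was 73.3, 17.3 for Rpl21 where the next was 63.2, 43.3 for Rps2 where the next was 104 and 329 for Rps3a where the next was 414, and Rplp2 was high at 8.66 where the next was 2.18. These rest on 0 to 38 counts. In animal 076 (200 ug/m3, day 7) Rps15 was low at 126, and Rpl34, Rps24 and Rpl8 were high at 179.8, 459 and 16.2. In air H of day 7 the high values were 42.5 for Rps28 in animal 011, 104 for Rpl28 in animal 033, 2.52 for Rplp2 in animal 012 and 43.5 for Rpl8 in animal 010. Rpl8 was also high at 10.4 in animal 014 (1000 ug/m3, day 7) and 48.5 in animal 018 (air H, day 27), and low at 0 in animal 003 (air H, day 1). Rplp2 was also high at 13.8 in animal 022 (1000 ug/m3, day 27), at 0.887 from 1 count in animal 006 (1000 ug/m3, day 1) and at 2.40 from 3 counts in animal 052 (air L, day 1). In animal 070 (air L, day 7) Rpl32 was low at 169.8 and Rps2 high at 104. Rpl13a was high at 418 in animal 046 (1000 ug/m3, day 27) and low at 375 in animal 085 (air L, day 27). Rpl17 was low at 70.1 in animal 089 (200 ug/m3, day 27) and Rpl38 was high at 59.6 in animal 087 (air L, day 27).

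The difference between air H and air L itself changed between days for the members given here, by edgeR's test of the change in a fit of all 72 libraries. For day 7 against day 1 the log2 changes were -3.95 for Rps16, -0.44 for Rpl7l1, -0.68 for Rpl21 and -0.56 for Rps26, and 0.79 for Rpl13a and 0.66 for Rpl18. For day 27 against day 1 they were 2.72 for Rps16, 0.68 for Rps28, 0.55 for Rps15 and 0.37 for Rpl7l1, and -0.63 for Rpl34, -0.55 for Rps24 and -0.43 for Rpl35. For day 27 against day 7 they were 6.67 for Rps16, 1.48 for Rpl38, 1.11 for Rps28, 0.64 for Rps15, 0.80 for Rpl7l1 and 0.38 for Rpl28, and -0.60 for Rps3a, -0.55 for Rpl19 and -0.56 for Rpl11.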

How the results depend on the processing

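The counts of members called in the exposed against air comparisons were 0 under every setting run. Between air H and air L at day 1 the count of 3 became 8 with DESeq2 and 12 with all 72 libraries in 1 fit, and between the exposed sets of day 1 the count of 0 became 1 and 2. The cause was not tested. The counts of the other comparisons stayed within 1.5 times: 38 to 53 in air and 47 to 60 in exposed rats at day 7, and 26 to 34 in air at day 27. Over all comparisons and settings, the median log2 fold change of all genes was at most 0.06 in size. The log2 fold change of Rpl28, air H minus air L difference, day 27 against day 1, which was not called, changed sign to 0.00201 with RLE factors and 0.00229 with DESeq2. Of the other values of single members and shares, 815 kept their direction and side of the threshold, 16 lost and 4 gained a call, and 5 shares moved by more than 1 SD when the 10 genes of highest share were left out. No paired analysis was possible because the animal numbers differ between all groups, so that no groups share 2 numbers. Depth limits the members below 10 CPM, and all values of animals 037, 024 and 045.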
